A study of Mus musculus with 4 samples.

Results

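Scavenger receptors are the cell-surface proteins with which macrophages bind and take up modified lipoproteins, dying cells, glycoproteins and microbes. The 8 genes described here, Mrc1, Msr1, Marco, Cd36, Cd163, Stab1, Scarb1 and Colec12, were taken as a list of names, with no measured value in the rule but with earlier results of these libraries known, and are 8 of 16739 genes that had a value in at least 1 library. All 8 had a value in every library and passed the filter on low counts. They were measured by RNA sequencing of tumor-associated macrophages (TAMs), sorted as CD45+CD11b+F4/80+ cells from subcutaneous B16-F10 melanomas, a melanoma line that grows in C57BL/6 mice. The comparison asked how TAM transcripts differ when Trim24, an E3 ubiquitin ligase, is removed from myeloid cells.

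The 2 groups were 2 wild type (WT) mice and 2 mice whose genotype is labelled Trim24-/-, all of the C57BL/6 strain, 6 to 8 weeks old at inoculation and sorted on day 16. According to the study's methods the mutant mice carried Trim24 flox/flox and LysM-Cre, a recombinase active across the myeloid lineage and so not only in macrophages, and controls were WT littermates. Both groups bore the same tumor, received no other treatment, and no tumor-free macrophages were compared here. The totals were 4476122 to 5172407 expected counts per library, at which 3 counts correspond to 0.58 to 0.67 CPM (expected counts relative to the library total) before scaling. All other CPM are scaled between libraries by edgeR. In bulk RNA of sorted cells, fewer cells of a type and less RNA per cell cannot be told apart.

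The labels were checked first. Trim24 was at 5.86 CPM in WT replicate 1 and 2.08 CPM in WT replicate 2, against 3.41 and 0.411 CPM in Trim24-deficient replicates 1 and 2, so the groups overlapped (log2 fold change -1.06, standard error 0.82, adjusted p = 0.635 by edgeR's quasi-likelihood test), and the latter are therefore called the mutant-labelled libraries. The expected counts behind these values were low, at 28.8 and 10.2 in WT and 16.1 and 2 in the mutant-labelled libraries, the last below 3 counts. They cover the whole gene, of which a floxed allele loses part, and the loss of that part was not tested. Xist, the X-inactivation RNA, had 10.9 and 6.46 CPM in the WT libraries and 437 and 256 CPM in the mutant-labelled libraries, while Ddx3y, on the Y chromosome, had 73.7 and 102 against 0.426 and 0.411 CPM. The study's methods describe the tumor-bearing mice as matched for age and sex, yet Xist and Ddx3y parted the groups. Genotype and sex therefore cannot be told apart in any comparison below. The macrophage label was checked with its markers: all 12 were tested and none was called by edgeR, DESeq2 or limma. By edgeR 2 of 12 had an unadjusted p below 0.05, against 12.2% of all genes. A log2 fold change above 0 was found in 11 of 12 (median 0.25). In 7 of 12 the CPM of the groups did not overlap, against 44.5% of all genes. Their summed level was 23982 and 20211 CPM in WT and 26934 and 25817 CPM in the mutant-labelled libraries. Adgre1, which encodes F4/80, was at 1039 and 1133 CPM in WT and 1246 and 1304 CPM in the other libraries.

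The receptors fall into structural classes. Msr1 (SR-A), Marco and Colec12 are class A receptors, trimers with a collagen-like stalk that bind polyanionic ligands such as oxidized lipoprotein and bacterial surfaces. Cd36 and Scarb1 (SR-BI) are class B receptors, with a membrane anchor at each end of the chain, and move fatty acids and cholesterol. Mrc1 (CD206) takes up mannose-ended glycoproteins through C-type lectin domains, Stab1 (stabilin-1) clears altered matrix and secreted proteins, and Cd163 binds haemoglobin held by haptoglobin. Mrc1, Cd163 and Stab1 are widely used as markers of alternatively activated (M2) and of resident tissue macrophages, and Stat6, the transcription factor acted on by interleukin 4, is a regulator of such genes.

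Each gene was located on GRCm38.p6 with RefSeq. Msr1 lies on chromosome 8 (39543232 to 39642750, minus strand), Marco on chromosome 1 (120474538 to 120505024, minus strand) and Colec12 on chromosome 18 (9707648 to 9877995, plus strand). Cd36 and Scarb1 lie far apart on the minus strand of chromosome 5 (17781690 to 17888959 and 125277087 to 125341094). Mrc1 lies on chromosome 2 (14229414 to 14332023, plus strand), Stab1 on chromosome 14 (31139017 to 31168651, minus strand) and Cd163 on chromosome 6 (124304636 to 124330529, plus strand). The number of exons in the longest transcript ran from 9 for Msr1 and 10 for Colec12 to 69 for Stab1. The values count reads over the exons of all transcripts of a gene, so no isoform was measured separately.

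Ordered by mean FPKM over the 4 libraries, a level per length that allows genes to be compared, the receptors ran from Msr1 (313) over Mrc1 (220), Stab1 (100.8), Cd36 (73.9), Scarb1 (52.3) and Colec12 (14.6) to Cd163 (4.66) and Marco (4.15). Msr1 was between the 230th and the 381st most abundant gene in each library, whereas Marco ranked between 6022 and 11401. Neighbours in this order were free of overlap over the 4 libraries only on either side of Colec12: Scarb1 (41.2 to 60.2 FPKM) lay above Colec12 (12.6 to 19.7 FPKM), and Colec12 above Cd163 (1.63 to 7.46 FPKM). Every other pair of neighbours overlapped. Within single libraries Mrc1 was above Stab1 in 4 of 4, Msr1 above Mrc1, Stab1 above Cd36 and Cd36 above Scarb1 in 3 of 4 each, and Cd163 above Marco in 2 of 4.

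**Figure D1:**
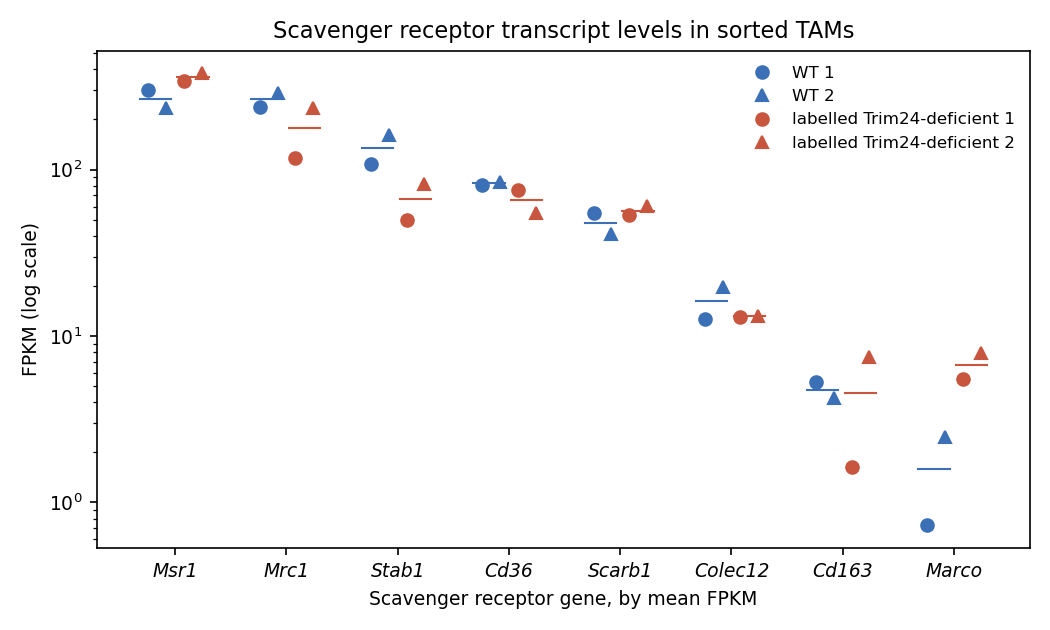
FPKM (log scale) of the 8 scavenger receptor genes, ordered by mean FPKM; circles are replicate 1 and triangles replicate 2 of WT (blue) and of the mutant-labelled libraries (red, labelled Trim24-deficient in the legend), and lines are group means. Msr1, with 235 to 379 FPKM, and Marco, with 0.73 to 7.87 FPKM, stand at the ends of the order.

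The receptors together took 0.350% of all counts in WT replicate 1 and 0.406% in WT replicate 2, against 0.250% and 0.345% in the mutant-labelled libraries. Mrc1, Msr1 and Stab1 held 81.5% to 87.9% of that sum, but in different proportions. Mrc1 was the most abundant by count in both WT libraries, with 36.9% and 38.3% of the receptor counts, and in the mutant-labelled replicate 2, with 36.9%. In the mutant-labelled replicate 1 Msr1 was the most abundant, with 39.9% against 25.3% for Mrc1. The ratio of Msr1 to Mrc1 in FPKM was 1.25 and 0.815 in WT and 2.89 and 1.61 in the mutant-labelled libraries, and that of Msr1 to Stab1 was 2.76 and 1.45 against 6.78 and 4.60. Neither ratio overlapped between the groups, each being higher in both mutant-labelled libraries. The ratio of Msr1 to Scarb1 varied less, between 5.48 and 5.71 in WT and between 6.29 and 6.36 in the other libraries, and did not overlap either. The CPM of single genes did not overlap between the groups in 44.5% of all genes tested, and no such share was taken for ratios. The ratios restate the levels of single receptors given below.

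Across all genes, edgeR's quasi-likelihood test called 42 of 11302 genes (0.372%), a call requiring a change of more than 1.5-fold and a false discovery rate under 0.05. Of these 33 (0.292%) were higher in the mutant-labelled libraries and 9 (0.0796%) were lower. It called none of the 8 receptors. At an unadjusted p below 0.05 in the same test there were 3 of 8 receptors, Marco and Msr1 higher and Stab1 lower, against 12.2% of all genes. That share is also the background for the gene lists below. DESeq2 called 165 of 10220 genes, with 1 receptor, Marco, among them. Of 11093 genes, limma called 23 on log2(FPKM + 1) and 20 on log2(FPKM + 0.1), and no receptor on either. In 4 of 8 receptors the CPM of the groups did not overlap, against 44.5% of all genes, a share near the background. The median log2 fold change of the receptors was -0.03, with 4 above and 4 below 0, beside -0.01 over all genes. An exact two-sided permutation test of 2 against 2 libraries cannot go below p = 0.333, so no single receptor could pass by it, and the adjusted p-values rely on spread estimates that edgeR pools over genes.

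**Figure D2:**
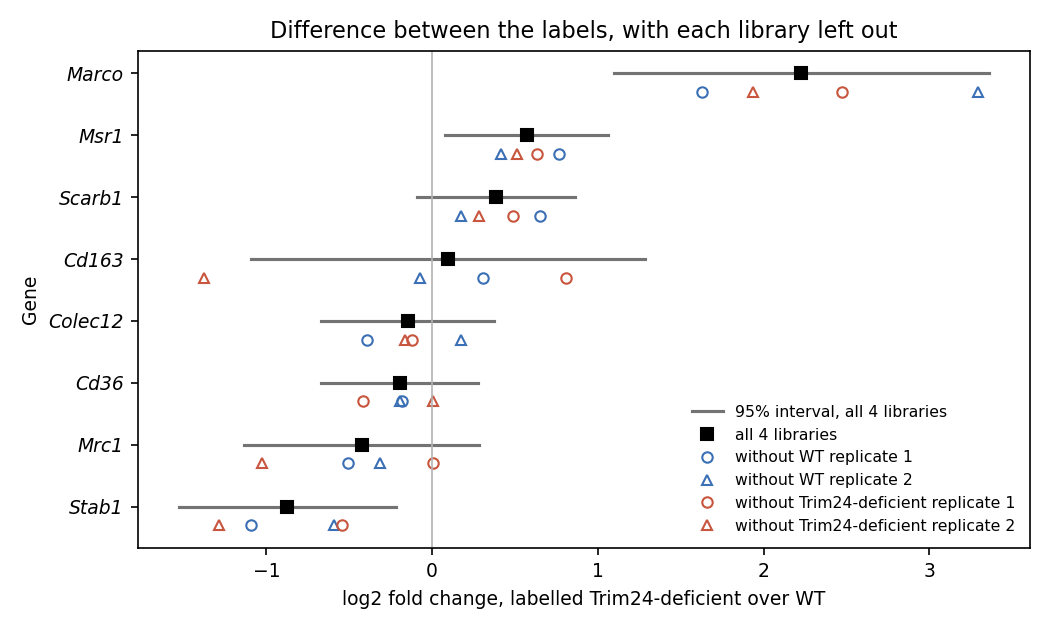
Log2 fold change of each receptor, mutant-labelled over WT, from edgeR (black squares, all 4 libraries, with 95% intervals in grey) and with each library left out (open symbols). The intervals of Marco, Msr1 and Stab1 do not reach 0, at 1.09 to 3.36, 0.08 to 1.06 and -1.53 to -0.22, and those of the other receptors do.

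Among the class A receptors, Msr1 was higher by level in both mutant-labelled libraries, at 1046 and 1131 CPM, than in WT, at 817 and 649 CPM. The group means were 1089 ± 59.9 and 733 ± 119 CPM (SD, n = 2 each). The difference was 1.49-fold (log2 fold change 0.57, standard error 0.22), with an adjusted p of 0.340 by edgeR's quasi-likelihood test. Msr1 was above WT with each library left out, the log2 fold change lying between 0.41 and 0.76. The transcript length over which RSEM averaged Msr1 was 2784 and 2935 bases in WT and 2918 and 2788 bases in the other libraries, a mixture of its 2 counted transcripts that overlapped between the groups.

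Marco showed the largest fold difference of the receptors at the lowest level. Its expected counts were 7 and 22 in WT and 54 and 81 in the mutant-labelled libraries, or 1.41 and 4.58 against 11.5 and 16.6 CPM. Both mutant-labelled libraries were above both WT libraries, and the WT libraries themselves differed 3.24-fold. The fitted difference was 4.68-fold (log2 fold change 2.23, standard error 0.50) with an adjusted p of 0.130 by edgeR's quasi-likelihood test, the 131st smallest p of 11302 genes. The size depended on which libraries were used. The log2 fold change was 3.29 without WT replicate 2 and 1.63 without WT replicate 1. It was 2.47 without mutant-labelled replicate 1 and 1.94 without mutant-labelled replicate 2. With all 4 libraries DESeq2 gave 2.26 with an adjusted p of 0.0298.

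Several markers of neutrophils and monocytes, but not all, were higher in both mutant-labelled libraries, as Marco was. Of 7 neutrophil markers with a value, 4 were tested and 3 had a log2 fold change above 0, with a summed level of 177 and 206 CPM in WT and 271 and 409 CPM in the mutant-labelled libraries. S100a8 was at 17.4 and 15.6 CPM in WT against 35.1 and 118 CPM, S100a9 at 6.66 and 9.38 against 19.2 and 44.8 CPM, and Csf3r at 87.0 and 96.9 against 170 and 157 CPM, each higher in both mutant-labelled libraries. Cxcr2, at 42.8 to 84.0 CPM, overlapped between the groups. Retnlg was at 1.82 and 0 against 1.92 and 11.3 CPM, Ly6g at 0 and 0 against 1.92 and 0.82 CPM, and Camp at no more than 0.21 CPM in any library. Of 7 monocyte markers, 6 were above 0, with 577 and 726 against 1704 and 1167 CPM summed. Spn was lower in both mutant-labelled libraries, at 22.6 and 21.7 CPM in WT against 20.0 and 12.3 CPM, and Ace overlapped between the groups. edgeR called none of these markers. At an unadjusted p below 0.05 by edgeR there were 3 of 4 neutrophil and 5 of 7 monocyte markers, against 12.2% of all genes. DESeq2 called 2 neutrophil markers, Csf3r and S100a9, and 3 monocyte markers, Chil3, Ly6c2 and Plac8, all higher in the mutant-labelled libraries. It called 165 of 10220 genes in all, and limma called none of these markers. The part of such cells in the level of Marco was not tested.

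Before its start site Marco carries, in RefSeq (GRCm38.p6), the sequence below, shown with those of Stab1 and Mrc1 because these 3 promoters hold the core GAGGAA bound by PU.1, the factor encoded by Spi1 that macrophages require. Capitals mark that core on either strand (TTCCTC where it lies on the other strand). Each line gives the 250 bases before the start site, 5′ to 3′ in the sense of the gene, at chr1:120505025-120505274 (minus strand) for Marco, chr14:31168642-31168891 (minus strand) for Stab1 and chr2:14229164-14229413 (plus strand) for Mrc1.
Marco: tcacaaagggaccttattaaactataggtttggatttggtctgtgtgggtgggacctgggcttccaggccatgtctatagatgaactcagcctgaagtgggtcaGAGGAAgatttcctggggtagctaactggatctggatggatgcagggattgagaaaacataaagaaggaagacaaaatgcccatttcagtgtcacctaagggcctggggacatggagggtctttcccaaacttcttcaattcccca
Stab1: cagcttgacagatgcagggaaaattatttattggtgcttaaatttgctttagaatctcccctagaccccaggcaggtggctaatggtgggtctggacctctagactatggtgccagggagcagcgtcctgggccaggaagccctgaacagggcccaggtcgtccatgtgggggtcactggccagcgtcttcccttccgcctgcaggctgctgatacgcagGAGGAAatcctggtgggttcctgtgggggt
Mrc1: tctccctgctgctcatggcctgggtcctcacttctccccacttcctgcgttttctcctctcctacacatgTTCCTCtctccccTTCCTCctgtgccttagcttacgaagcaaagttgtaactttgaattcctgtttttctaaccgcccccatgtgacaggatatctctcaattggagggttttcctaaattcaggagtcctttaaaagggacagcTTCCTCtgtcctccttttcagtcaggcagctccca
The core begins 146 bases before the start site in Marco, 30 before it in Stab1, and 180, 167 and 35 before it in Mrc1. It was found on either strand in 28.3% of 32851 mouse promoters of 300 bases, so it is common. Promoters were analysed for 5 of the 8 receptors, these 3 with Cd36 and Cd163. Those of Msr1, Scarb1 and Colec12 were not analysed, so their motifs are not known here. The motif that Stat6 binds, TTC and GAA with 4 bases between them, occurred in 6.95% of all promoters and in Cd36 alone among the 5, as TTCACCAGAA from base 20 after the start site, a match that reads on both strands. The start site of this Cd36 promoter lies inside the gene span given above and not at its outer end. The motif of other STAT proteins, with 3 bases between, occurred in 8.30% of all promoters and in none of the 5. Marco has no CpG in its 300 bases, where the median promoter has 7, and Stab1 has 7.

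Colec12, the class A receptor with a lectin domain that is also made by endothelial cells, was at 41.2 and 61.7 CPM in WT and at 45.8 and 47.1 CPM in the mutant-labelled libraries. WT replicate 2 stood above the other 3 libraries, and the groups overlapped (log2 fold change -0.15, 95% interval -0.67 to 0.37, adjusted p = 0.838 by edgeR's quasi-likelihood test). Its expected counts, 203.8 and 296.1 in WT, were not whole numbers, so some of its reads were shared by RSEM with other sequences.

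Of the class B receptors, Cd36, which takes up long-chain fatty acids and oxidized lipoprotein, was at 277 and 278 CPM in WT and at 277 and 207 CPM in the mutant-labelled libraries. The WT libraries and the mutant-labelled replicate 1 were nearly equal, and replicate 2 of that group was lower. The log2 fold change was -0.20 (standard error 0.21, 95% interval -0.67 to 0.28) and did not pass (adjusted p = 0.750 by edgeR's quasi-likelihood test). Cd36 is also a fat-cell gene, and of 4 adipocyte markers only Lep had a value, 0.208 CPM in 1 library.

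Scarb1, the receptor for high-density lipoprotein, was at 134 and 97.7 CPM in WT and at 141 and 163 CPM in the mutant-labelled libraries. The groups did not overlap in CPM, but in FPKM, at 54.6 and 41.2 against 53.3 and 60.2, they did. Its log2 fold change came to 0.39 (standard error 0.21, 95% interval -0.09 to 0.86, adjusted p = 0.491 by edgeR's quasi-likelihood test). The ratio of Scarb1 to Cd36 in FPKM was 0.677 and 0.488 in WT and 0.707 and 1.09 in the other libraries.

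Stab1 was lower in both mutant-labelled libraries, at 426 and 712 CPM, than in WT, at 858 and 1228 CPM. The means were 569 ± 202 and 1043 ± 262 CPM (SD, n = 2 each), a 1.83-fold difference (log2 fold change -0.87, standard error 0.29) with an adjusted p of 0.266 by edgeR's quasi-likelihood test. Within a group the libraries differed 1.43-fold in WT and 1.67-fold in the other. Stab1 was below WT with each library left out, between -1.29 and -0.55. Stab1 is also made by sinusoidal endothelium. The 6 endothelial markers with a value summed to 22.2 and 20.6 CPM in WT and 46.6 and 31.6 CPM in the mutant-labelled libraries. Most of the mutant-labelled sums came from Pecam1, which myeloid cells also make, at 16.0 and 5.63 CPM in WT and 36.0 and 22.0 CPM in the other libraries. Of the others, Kdr was at 2.83 to 9.17 CPM, Vwf at 1.88 to 4.32 CPM, Cdh5 at 0.20 to 2.92 CPM, Stab2, the endothelial relative of Stab1, at 0.20 to 1.28 CPM and Emcn at no more than 0.20 CPM, and of these only Vwf parted the groups, being higher in the mutant-labelled libraries. None of the 3 tested was called, and the part of endothelial RNA in the level of Stab1 was not tested.

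The last 108 bases of Stab1 lie over the end of Nt5dc2, a gene on the other strand, and whether the libraries kept strand is not given in the sources used here, so reads from these bases cannot be assigned for certain. Gm52148, a long non-coding RNA gene not analysed here, overlaps 683 bases of the Stab1 gene, whose transcript has 7995 bases. Nt5dc2 had 94.7 and 152 CPM in WT and 30.2 and 70.9 CPM in the other libraries, the same order as Stab1 (log2 fold change -1.28, edgeR adjusted p = 0.210).

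Mrc1 differed mainly between the 2 mutant-labelled libraries. Mrc1 stood at 1257 and 1452 CPM in WT, at 664 CPM in the mutant-labelled replicate 1 and at 1353 CPM in replicate 2, which lay between the WT libraries. The ratio of the 2 mutant-labelled libraries, 2.04, exceeded that of the means of the groups, 1355 ± 138 and 1009 ± 487 CPM (SD, n = 2 each). On the log2 scale the fitted change was -0.43 (standard error 0.32, 95% interval -1.14 to 0.28, adjusted p = 0.621 by edgeR's quasi-likelihood test). Without mutant-labelled replicate 1 it was 0.0039, and without replicate 2 it was -1.03.

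Cd163 spread still more within that group. It was at 23.0 and 17.9 CPM in WT, at 7.88 CPM in the mutant-labelled replicate 1 and at 35.8 CPM in replicate 2, which were the lowest and the highest of the 4 libraries and differed 4.54-fold. The group means were 20.5 ± 3.61 and 21.8 ± 19.7 CPM (SD, n = 2 each), and the log2 fold change of 0.09 (standard error 0.53, 95% interval -1.09 to 1.28, adjusted p = 0.962 by edgeR's quasi-likelihood test) changed sign with the scaling. Without mutant-labelled replicate 2 it was -1.37, and without replicate 1 it was 0.81. Its expected counts were not whole numbers, so reads were shared with other sequences.

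**Figure D3:**
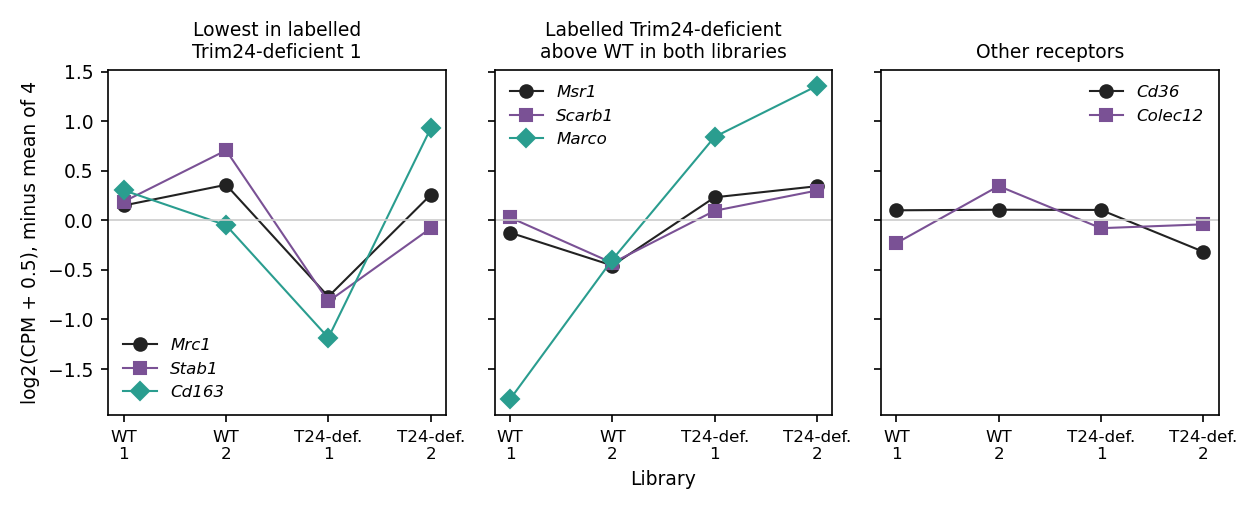
Log2(CPM + 0.5) of each receptor minus its mean over the 4 libraries; T24-def. stands for mutant-labelled, and lines only join the values of a gene. Mrc1, Stab1 and Cd163 are lowest in the mutant-labelled replicate 1 (left), Msr1, Scarb1 and Marco are higher in both mutant-labelled libraries (middle), and Cd36 and Colec12 are within a narrower range (right).

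Mrc1, Stab1 and Cd163 were lowest in the mutant-labelled replicate 1, as were other genes of perivascular and resident macrophages. Of 21 such genes 19 were tested and none was called by edgeR, with 12 above and 7 below 0 and a median log2 fold change of 0.29. At an unadjusted p below 0.05 by edgeR there were 7 of 19, against 12.2% of all genes, with Igf1 and Fcrls lower and the others higher. DESeq2 called 1, C4b, as higher and limma none. The lowest value was in the mutant-labelled replicate 1 for 13 of 19 (68.4%, against 27.1% of all genes tested). The highest was in the mutant-labelled replicate 2 for 13 of 19, against 3124 of 11302 genes tested. Cd163 was also highest there, while Mrc1 and Stab1 were highest in WT replicate 2, at 1452 and 1228 CPM. Lyve1, a hyaluronan receptor of perivascular macrophages, was at 29.9 and 20.8 CPM in WT and at 5.33 and 49.3 CPM in the mutant-labelled replicates 1 and 2. In 8 of 19 the groups did not overlap, against 44.5% of all genes. Of these, Gas6, Igf1, Fcrls and Wwp1 were lower in both mutant-labelled libraries, as Stab1 was, and Ccl8, Ccl24, C4b and Mgl2 were higher in both. The 2 with the highest mean CPM, Selenop, a selenium carrier, at 1377 and 1390 against 1192 and 1892 CPM (log2 fold change 0.16, edgeR adjusted p = 0.848), and Ccl8, a monocyte chemokine, at 860 and 488 against 1024 and 1248 CPM (0.75, edgeR adjusted p = 0.332), did not pass. The summed level was 5243 and 5732 CPM in WT against 3690 and 7315 CPM, and its part in the values of Mrc1, Stab1 and Cd163 was not tested.

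The genes whose profile over the 4 libraries lay nearest to a receptor, by distance between centred log2 CPM, were Slc7a5 and Loxl2 for Mrc1 (0.083 and 0.086), Oas1a and C86187 for Msr1 (0.047 and 0.056), and Ube2o and Prag1 for Stab1 (0.056 and 0.108). Loxl2 had 46.8 and 57.7 CPM in WT and 26.6 and 53.4 CPM in the other libraries, and Oas1a had 264 and 218 against 338 and 373 CPM. For Cd36 these were Ssbp4 and Dmxl1 (0.015 and 0.023), for Scarb1 Mrpl36 and Dnpep (0.028 and 0.055), and for Colec12 Tbc1d9b and Iqsec2 (0.028 and 0.031). The closest were farther away for Marco, Ptgs1 and Hdc (0.676 and 0.848), and for Cd163, Rcn3 and Foxr1 (0.390 and 0.407). This distance grows with a gene's own range, which was widest for Marco and Cd163 (3.16 and 2.11 log2 units). Over the 4 libraries Marco and Ptgs1 correlated at r = 0.969, and Cd163 and Rcn3 at r = 0.989. These genes were picked as the nearest profiles, so a high r over only 4 libraries follows from that choice.

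Of 24 other scavenger and endocytic receptors, 11 were tested and 1 was called by edgeR and by DESeq2, Clec7a (dectin-1), the receptor for fungal beta-glucan. Clec7a rose from 63.0 and 44.8 CPM in WT to 189 and 133 CPM in the mutant-labelled libraries (log2 fold change 1.58, standard error 0.24, edgeR adjusted p = 0.0349). This call was lost without WT replicate 2 (1.35, edgeR adjusted p = 0.235) and with library totals in place of TMM (1.43, adjusted p = 0.0688), and limma did not make it. The 2 with the highest mean CPM, a scale that favours long transcripts, did not pass: Cd68, a lysosomal class D receptor, was at 1749 and 1720 against 1541 and 2137 CPM (log2 fold change 0.08, edgeR adjusted p = 0.919), and Lrp1, the receptor for many protease complexes and for haem held by haemopexin, was at 764 and 1126 against 699 and 630 CPM (-0.51, edgeR adjusted p = 0.430). The median log2 fold change of the 11 was 0.08, with 9 above 0.

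Around Cd36, Msr1 and Scarb1, none of 21 tested genes of lipid uptake, storage and efflux was called by edgeR, with 13 above and 8 below 0, a median of 0.35 and 3 of 21 at an unadjusted p below 0.05. DESeq2 and limma called none of them either. Apoe, the apolipoprotein of cholesterol efflux, varied within both groups, at 4663 and 6419 CPM in WT and 3052 and 7758 CPM in the other libraries (log2 fold change -0.04, edgeR adjusted p = 0.981). Npc2, which carries cholesterol out of the lysosome, was at 815 and 693 against 1021 and 904 CPM (0.35, edgeR adjusted p = 0.539).

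Around Cd163, 1 of 13 tested genes of haemoglobin and haem handling was called by edgeR and by DESeq2. Hp, which encodes haptoglobin, the carrier that Cd163 recognizes, rose from 6.87 and 7.71 CPM to 22.6 and 31.2 CPM (log2 fold change 1.88, standard error 0.29, edgeR adjusted p = 0.0368). The call was lost without WT replicate 1 (1.82, edgeR adjusted p = 0.0827), without WT replicate 2 (1.97, adjusted p = 0.121) and with library totals (1.73, adjusted p = 0.0737), and limma did not make it. Neutrophils also make Hp. Of the neutrophil markers given beside Marco, S100a8, S100a9 and Csf3r were higher in both mutant-labelled libraries, while Cxcr2 and Camp overlapped between the groups. The part of such cells in the level of Hp was not tested. The ferritin chains Ftl1 and Fth1, which store iron, had log2 fold changes of 0.27 and 0.01 (edgeR adjusted p = 0.745 and 0.988). The list had 8 genes above and 5 below 0 and a median of 0.17.

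None of 19 coreceptors and signalling partners was called, with 14 above 0, a median of 0.20 and 2 of 19 at an unadjusted p below 0.05 by edgeR. DESeq2 called 1, the integrin subunit Itgb2, as higher, and limma called none. Fcer1g, an adaptor for activating receptors, was at 2298 and 2114 CPM in WT and 2879 and 3037 CPM in the other libraries (log2 fold change 0.42, edgeR adjusted p = 0.465), and Cybb, the oxidase subunit of the phagosome, was at 711 and 746 against 1189 and 848 CPM (0.48, edgeR adjusted p = 0.434). Nor was any of 18 transcription factors of the receptors called, with 10 above and 8 below 0, a median of 0.01 and 1 of 18 at an unadjusted p below 0.05 by edgeR, and DESeq2 and limma called none. Spi1 was at 503 and 477 against 562 and 455 CPM (0.05, edgeR adjusted p = 0.940), and Stat3 at 251 and 243 against 353 and 311 CPM (0.42, edgeR adjusted p = 0.417).

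**Figure D4:**
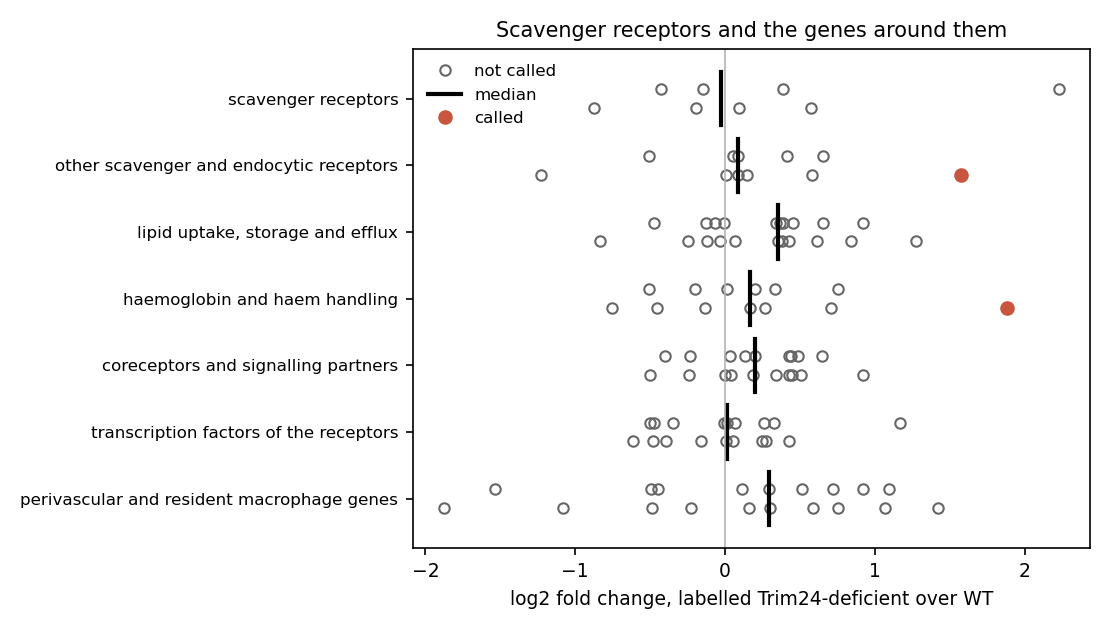
Log2 fold change, mutant-labelled over WT, of the tested genes of each list; open circles were not called, filled circles were called by edgeR, and bars are medians. The called genes are Clec7a (1.58) and Hp (1.88), and Marco, at 2.23, is the highest receptor without being called.

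The sort kept CD45+CD11b+F4/80+ cells, a gate that should leave out melanoma cells and fibroblasts, which lack CD45, and most T and B cells. Melanoma markers summed to 783 and 740 CPM in WT and 585 and 789 CPM in the mutant-labelled libraries. Of the 6, 1 was above 0, Tyr, at 375 to 496 CPM, which overlapped between the groups. In 3 of 6 the groups did not overlap, against 44.5% of all genes. These were Tyrp1, at 146 and 128 against 70.1 and 104 CPM, Dct and Mlana, each lower in both mutant-labelled libraries. Dendritic cell markers summed to 48.7 and 48.8 CPM in WT and 79.0 and 37.0 CPM in the mutant-labelled libraries (5 tested). T and NK cell markers summed to 37.6 to 120 CPM (5 tested) and B cell markers to 46.3 to 55.4 CPM (1 tested). Fibroblast markers summed to 2.83 to 5.96 CPM, with none tested. None of these markers was called by edgeR, DESeq2 or limma, and 1 dendritic cell and 1 melanoma marker had an unadjusted p below 0.05 by edgeR.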

How the data were processed

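RNA-seq libraries of TAMs from 2 WT mice and 2 mice labelled Trim24-deficient were grouped by their labels, and all 4 entered each test. The authors used Bowtie for mapping to GRCm38/mm10 and RSEM for quantification. They deposited expected counts of each gene (about 77% whole), not normalized, with FPKM scaled to transcript length and library total, and the transcript length. Versions and the annotation release are not given in the sources used here, and nothing says whether reads were counted by strand. Genes at 0 are left out of the deposited files and were set to 0. Symbols matched 16698 of 16739 genes.

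Expected counts were rounded and tested with edgeR 4.0.16 in R 4.3.3 (filterByExpr, leaving 11302 genes, TMM, glmQLFit and glmQLFTest, no block), with calls at a fold change above 1.5 and a Benjamini-Hochberg FDR below 0.05 over all genes, as in the study's methods. TMM factors were 0.943 to 1.08. Standard errors are the log2 fold change over the square root of F. CPM divides counts by the library total (4476122 to 5172407 counts) times its TMM factor. The floor of 3 counts is relative to the unscaled total. The median log2 fold change over all genes was -0.01. Library totals without TMM moved it to -0.15, and limma on log2 FPKM to -0.13 and -0.15. Replicates differed by more than sampling noise (chi-square per degree of freedom 9.06 in WT and 20.1 in the mutant-labelled libraries). The study's methods name WT littermates as controls, but nothing says which of these mice were littermates. The edgeR p-values weigh each difference against the spread between these libraries, which is estimated in part by pooling over genes.

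The receptors and all gene lists were chosen with earlier results of these data known. The text names all 8 receptors, the genes called in each list, the 2 with the highest mean CPM in each list, the 2 nearest profiles of each receptor with mean log2 CPM at or above 3, and Trim24, Xist and Ddx3y. Lyve1, Gas6, Igf1, Fcrls, Wwp1, Ccl24, Mgl2, Nt5dc2, C4b, Itgb2 and the single cell type markers were named after their values were seen. Promoters are RefSeq sequences from 250 bases before to 50 after the start site. Protein sequences were not analysed here. Alternatives were DESeq2 1.42.0, limma 3.58.1 on log2(FPKM + 1) and log2(FPKM + 0.1), other scalings and filters, a replicate block, leaving out chromosomes X and Y, and leaving out each library. The scripts were tested on simulated data.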

Additional observations from a re-analysis of the deposited data

How the results depend on the processing

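The number of genes called, 42 (78.6% higher), was 634 with the replicate number as a block (67.0% higher), 165 with DESeq2, 23 and 20 with limma on log2(FPKM + 1) and log2(FPKM + 0.1) (60.9% and 55% higher) and 27 without chromosomes X and Y (100% higher), and 25 to 652 with each library left out. With at least 10 counts in every library 88.6% of the calls were higher, and Marco gave no value since that filter removes it. The count of receptors called, 0, was 2 with the replicate block, 1 with DESeq2, and 0 to 4 with each library left out. The replicate block called Marco (log2 fold change 2.31, adjusted p = 9.7e-06 by edgeR) and Stab1 (-0.90, adjusted p = 0.00061). The numbers 1 and 2 in the titles are shared by the groups but nothing states that they pair the mice, and the deviations of same-numbered libraries from their group means correlated at 0.166 across genes.

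Of 139 log2 fold changes of the receptors, Clec7a and Hp under the alternatives, 111 kept their sign and their side of the threshold, with those of Clec7a and Hp added after these were seen to be called. Clec7a and Hp stayed above 0 in all 14 alternatives each and lost the call in 5 and 6 of them. Cd163 reversed to -0.16 with the replicate block, -0.056 with library totals, and -0.28 and -0.42 with limma, and ran from -1.37 to 0.81 with each library left out. Under the same omissions Cd36 ran from -0.42 to 0.0023, Colec12 from -0.39 to 0.17 and Mrc1 from -1.03 to 0.0039. The cause was not tested. Where an omission leaves 1 library in a group, that library is assumed to vary like the other group. The adjusted p of Marco was between 9.7e-06 and 0.307 over its alternatives. At 7 and 22 counts in WT, Marco has the least depth behind its value.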
